A study of Canis lupus familiaris with 17 samples.

Results

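Among the 32912 features counted in the olfactory epithelium of 17 dogs, 208 carry the name of a chromosome followed by a running number, in place of the Ensembl gene ID that the rest carry. The 45 whose names begin with chr18_ make up the largest of these groups, and they were taken by name alone. Their running numbers lie between 17 and 169. The olfactory epithelium lines the upper nasal cavity and contains the neurons that sense odours. Polyadenylated RNA from it was sequenced in 1 library per dog (Canis lupus familiaris), and the deposited values are reads per feature.

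The dogs differed in body weight and in a scent code that the labels leave unexplained. In the Below_10 class were 8 dogs of 5.0 to 9.79 kg. Of these, 6 carried scent code 0 (Pomeranian, Jack Russel terrier, miniature schnauzer, Chinese crested, poodle and rat terrier) and 2 carried scent code 1 (dachshunds of 9.5 and 9.07 kg, the first labelled Dachsund). In the Over_10 class were 9 dogs of 10.21 to 44.0 kg. Of these, 4 carried scent code 0 (Doberman pinscher, cocker spaniel, bulldog terrier and English pointer) and 5 carried scent code 1 (beagle, German shepherd, basset hound and Labrador retrievers of 20.4 and 44 kg). The labels name no treatment or genotype, and nearly every breed is a single dog, so breed and dog cannot be told apart. Labelled age ran from 0.5, in the 20.4 kg Labrador retriever, to 14, in the Jack Russel terrier and the English pointer.

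Olfactory receptors are G protein-coupled receptors that bind odorants on the cilia of olfactory sensory neurons. They form the largest gene family of mammals, lie in tandem clusters of closely similar genes, and each mature neuron as a rule expresses a single receptor gene from a single allele. A receptor's level in bulk tissue therefore reflects how many neurons chose it as well as how much RNA each of them holds, and the values here cannot tell these apart. Receptors are divided into class I, the fish-like class, and class II, which holds most mammalian receptors.

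The files give no gene name for the chromosome 18 features, and 0 of the 45 names matched the RefSeq table of assembly UU_Cfam_GSD_1.0. That they are receptors is therefore the group's working name and was not checked on sequence. In that table, chromosome 18 carries 196 olfactory receptor genes, of which 168 are marked protein coding and 28 pseudogenes. By symbol, 78 belong to family OR5, 72 to OR4, 19 to OR8, 15 to OR10 and 9 to OR9, all class II families. Ordered along the chromosome, they fall into 23 runs without another protein-coding gene between them, the longest of 42 and 26 receptor genes. Because near-identical receptor copies can share reads, the level of any single feature is uncertain. Markers of olfactory neurons and of other nasal cell types were not checked either, since no table used here pairs the other IDs with names.

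Library totals ran from 10536639 to 31637925 counts. A pair of libraries needs naming before any result. Among the 14223 features with at least 30 reads in the 9.5 kg dachshund, the share of counts in the cocker spaniel was below 0.560 times that of the dachshund for only 1% of features. For the other 15 libraries set against the same dachshund, this 1% point was at most 0.199, and among the pairs with another library in the denominator at most 0.350. The cocker spaniel's reads for the 23 features numbered 17 to 112 were 0.500 to 1.17 times those of the dachshund (median 0.788). For the features numbered 121 to 140, the ratio was 0.271 to 0.667 (median 0.452). In the other direction, with the cocker spaniel in the denominator, the 1% point of that dachshund was 0.059. Log2 levels over 16890 features, each relative to its mean over dogs, were also correlated. Pearson's r was 0.729 in this pair and 0.794 between that dachshund and the Pomeranian. Between the cocker spaniel and the Pomeranian it was 0.652, and in the other pairs at most 0.645. The reasons for these resemblances were not tested. Together the cocker spaniel and the 9.5 kg dachshund held 49.6% of all chromosome 18 reads. Values without this pair are given beside the summed levels, the leading means, the rank correlations and the group differences. Both carry the mark of a first replicate in their library names, as do the beagle and the 20.4 kg Labrador retriever.

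Chromosome 18 features held a small part of each library. They took 0.00102% of the counts in the basset hound (125 reads, 95% Wilson interval 0.000858 to 0.00122%) and 0.0355% in the 9.5 kg dachshund (11226 reads, interval 0.0348 to 0.0362%). These intervals cover counting error only, because reads without molecular identifiers are not independent molecules. Of all reads on the 208 chromosome-named features, those of chromosome 18 made up 16.6% in the Jack Russel terrier to 52.3% in the German shepherd, with a median of 32.2% over the 17 dogs.

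A few features carried most of this signal. The 10 most abundant held 74.6% of all chromosome 18 reads and the top 5 held 55.0% (73.1% and 51.3% without the cocker spaniel and the 9.5 kg dachshund). Feature chr18_126 led with a mean of 25.6 ± 35.9 CPM (SD, n = 17; CPM, read counts divided by library size after scaling by TMM, edgeR's trimmed-mean method, and expressed per 1000000). It was followed by chr18_169 at 18.4 ± 23.8 CPM, chr18_140 at 12.1 ± 15.9 CPM, chr18_121 at 11.1 ± 14.3 CPM and chr18_128 at 9.31 ± 10.9 CPM. Each of these SDs was larger than its mean, and differences between neighbours in this order were not tested within dogs. The order is one of reads and not of transcripts, because feature lengths were not used here. Without the cocker spaniel and the 9.5 kg dachshund, the mean of chr18_126 was 15.7 ± 15 CPM (SD, n = 15) and that of chr18_169 was 10.8 ± 7.48 CPM, and chr18_126, chr18_169 and chr18_140 still led. Behind chr18_128 in the order over all 17 dogs came chr18_130, chr18_123, chr18_166, chr18_91 and chr18_127, with means from 8.40 down to 3.54 CPM. In the order without that pair, chr18_130 (7.19 CPM) stood before chr18_121 (6.66 CPM) and chr18_128 (6.58 CPM). There chr18_97 (2.59 CPM) was among the top 10 in place of chr18_127. At the other end, chr18_132 and chr18_133 had 0 reads in every dog, and 20 others averaged under 1 CPM.

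Detection was counted on libraries thinned to the same total of 10536639 counts, with 5 reads as the minimum. TMM factors still differed between the thinned libraries, from 0.518 to 1.14. Only 3 features were detected in all 17 dogs, namely chr18_121, chr18_166 and chr18_169. Another 3 were detected in none, chr18_124 and the pair without reads. Per dog, detected features ranged from 8 of 45 in the basset hound to 37 in the Pomeranian.

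**Figure D1:**
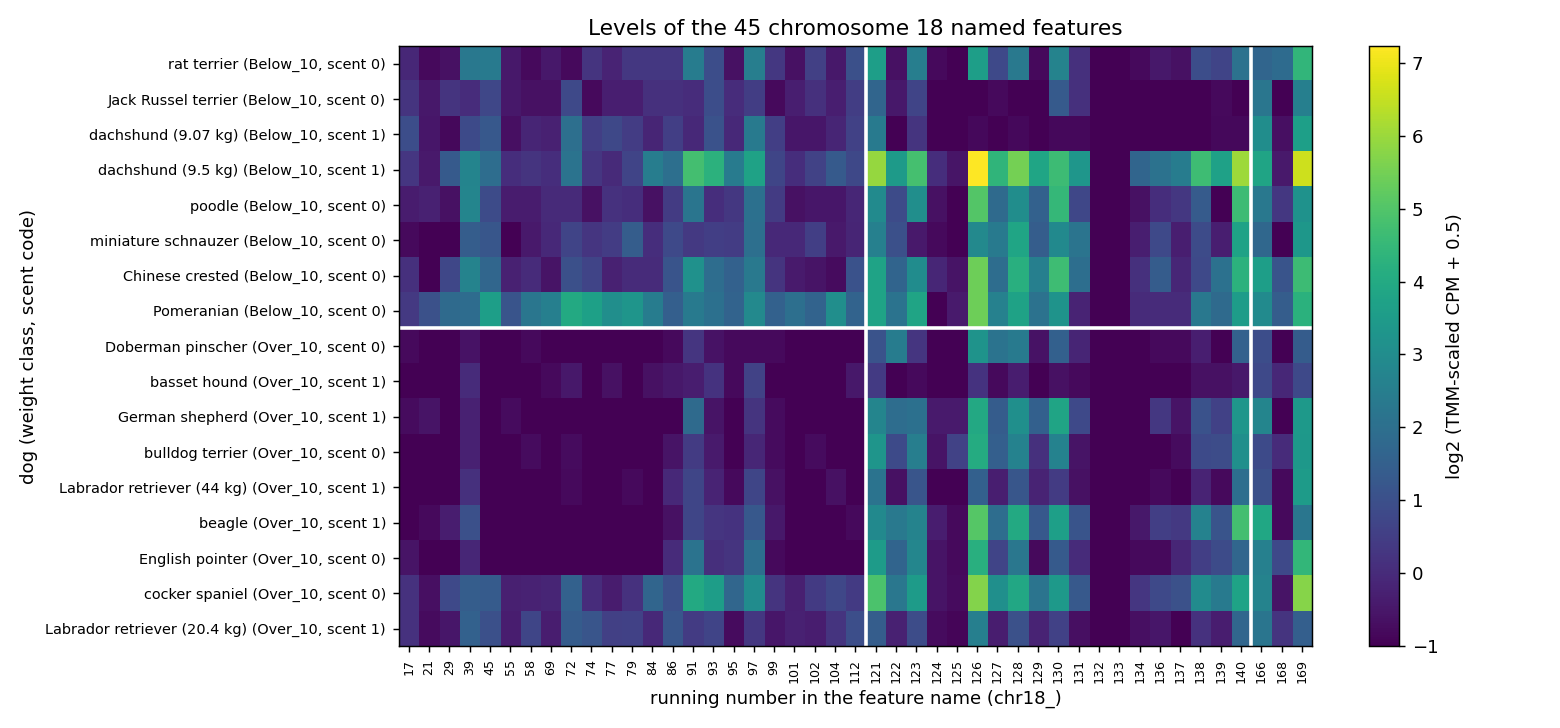
Level of each chromosome 18 named feature (columns, in order of running number) in each dog (rows, by weight class and, within a class, by the number of named features detected on other chromosomes), as log2 (TMM-scaled CPM + 0.5); white lines part the weight classes and the stretches 17 to 112, 121 to 140 and 166 to 169. Most features numbered 17 to 112 are dark in 7 of the 9 Over_10 dogs, whereas those numbered 122 to 140 are dark in the Jack Russel terrier, the 9.07 kg dachshund and the basset hound.

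Along the running number, the features fell into stretches with different patterns over the dogs. The first stretch, 17 to 112, holds 23 features spread over 96 numbers. The second, 121 to 140, holds 19 features over 20 numbers, with only number 135 missing. The last holds 166, 168 and 169. They took 18.9%, 63.2% and 17.9% of all chromosome 18 reads, and 21.4%, 60.9% and 17.8% without the cocker spaniel and the 9.5 kg dachshund. In single dogs the share of the first ran from 3.30% (bulldog terrier) to 48.0% (9.07 kg dachshund) and that of the second from 11.6% (9.07 kg dachshund) to 85.9% (Doberman pinscher). No source used here says what the running number stands for. Since these stretches were drawn after the values had been seen, they are described and not tested.

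Features 17 to 112 were widely detected in the small dogs, and mostly undetected in 7 of the 9 large ones. Every Below_10 dog had between 13 and 23 of the 23 detected, with a median of 15.5. In 7 of the large dogs the number was 1 to 5. The exceptions were the cocker spaniel with 18 and the 20.4 kg Labrador retriever, the youngest dog, with 15. Summed over the stretch, levels ran from 12.5 CPM (Jack Russel terrier) to 121 CPM (Pomeranian) in Below_10 dogs, with a median of 26.4 CPM. In Over_10 dogs they ran from 1.49 CPM (Doberman pinscher) to 56.6 CPM (cocker spaniel), with a median of 4.68 CPM. Apart from those 2 exceptions, no Over_10 dog exceeded 9.77 CPM (English pointer), so the classes overlapped only through them.

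The contrast was deepest in the 9 features from chr18_45 to chr18_84. Together they had 57 to 560 reads in the Below_10 dogs. The beagle and the English pointer had 0 reads on all of them, the Doberman pinscher and the German shepherd 1, the bulldog terrier and the 44 kg Labrador retriever 2, and the basset hound 8. The cocker spaniel had 216 and the 20.4 kg Labrador retriever 226. The 4 features from chr18_91 to chr18_97 differed less sharply, with 45 to 1039 reads in Below_10 dogs and 13 to 102 in those same 7 Over_10 dogs. From chr18_99 to chr18_112 the gap returned, with 26 to 147 reads in Below_10 dogs and 1 to 4 in the 7.

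Feature chr18_45 shows this gap in a single member. Its reads in Below_10 dogs were 16 in the Jack Russel terrier, 19 in the poodle, 23 in the miniature schnauzer, 28 in the 9.07 kg dachshund, 33 in the Chinese crested, 55 in the 9.5 kg dachshund, 62 in the rat terrier and 90 in the Pomeranian. In the Over_10 dogs it had 46 reads in the cocker spaniel, 36 in the 20.4 kg Labrador retriever and 0 in the other 7. A count of 0 allows up to 3 reads, which is 0.215 CPM in the beagle and 0.257 CPM in the bulldog terrier, the ends of the range over those 7 libraries. On the CPM scale the lowest, median and highest levels were 1.19, 2.34 and 11.7 in Below_10 dogs and 0, 0 and 2.08 in Over_10 dogs. Every Below_10 dog was thus above the limit of all 7, and the pair of Over_10 dogs with reads lay inside the Below_10 range. Features chr18_74 and chr18_101 also had 0 reads in each of the 7.

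The second stretch did not follow weight class. Detected features of the 19 ran from 2 to 15 in both classes, with medians of 11 in Below_10 and 12 in Over_10 dogs. Summed levels ran from 5.76 to 476 CPM in Below_10 dogs (median 87.2 CPM) and from 2.64 to 164 CPM in Over_10 dogs (median 51.4 CPM). Without the 9.5 kg dachshund, the highest Below_10 level was 148 CPM and the median 62.1 CPM. Without the cocker spaniel, the highest Over_10 level was 122 CPM and the median 41.0 CPM. The low values belonged to dogs of either class: the basset hound (2.64 CPM), the 9.07 kg dachshund (5.76 CPM), the Jack Russel terrier (6.79 CPM), the 44 kg Labrador retriever (15.6 CPM) and the 20.4 kg Labrador retriever (16.8 CPM). All other dogs had at least 30.7 CPM (Doberman pinscher).

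Of the 16 features from chr18_122 to chr18_140 that had any read, 15 had 0 or 1 read in the 9.07 kg dachshund, 12 in the Jack Russel terrier and 10 in the basset hound. The number was 6 in the Doberman pinscher and the 44 kg Labrador retriever and at most 4 elsewhere. In the first pair of these dogs the first stretch was well represented, with 350 reads and 16 detected features in the dachshund and 167 reads and 13 detected features in the terrier. Of the 23 features of the first stretch, only 1 and 2 had 0 or 1 read there, against 15 in the beagle and 20 in the Doberman pinscher. The beagle showed the opposite arrangement, with 1702 reads on the second stretch and 94 on the first.

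The most abundant feature, chr18_126, had 0 reads in the Jack Russel terrier and 1 in the 9.07 kg dachshund, against 86 in the miniature schnauzer, 158 in the rat terrier, 327 in the Pomeranian, 462 in the poodle, 500 in the Chinese crested and 2446 in the 9.5 kg dachshund. In Over_10 dogs it had 9 reads in the basset hound, 31 in the 44 kg Labrador retriever, 112 in the Doberman pinscher, 126 in the 20.4 kg Labrador retriever, 178 in the German shepherd, 188 in the bulldog terrier, 209 in the English pointer, 464 in the beagle and 1131 in the cocker spaniel. The lowest, median and highest levels were 0, 22 and 149 CPM in Below_10 dogs and 0.659, 15.1 and 51.2 CPM in Over_10 dogs. All Over_10 values lay inside the Below_10 range, whose top was the 9.5 kg dachshund alone. Feature chr18_128 had 0 reads in the Jack Russel terrier, 1 in the 9.07 kg dachshund and 4 in the basset hound, and chr18_140 had 0, 1 and 3. Feature chr18_130 differed from these in the Jack Russel terrier, with 27 reads, while the 9.07 kg dachshund had 1 and the basset hound 2.

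Feature chr18_121, which opens the stretch by number, was kept in the dogs with few reads on the features that follow it. It had 36 reads in the Jack Russel terrier, 69 in the 9.07 kg dachshund and 11 in the basset hound. Its lowest, median and highest levels were 2.69, 9.44 and 60.2 CPM in Below_10 dogs and 0.806, 6.13 and 29.3 CPM in Over_10 dogs. The last stretch was similar in this respect. Feature chr18_169 ran from 5.30 to 97.2 CPM in Below_10 dogs (median 15.4) and from 1.25 to 52.8 CPM in Over_10 dogs (median 9.95). For chr18_166 the range was 2.70 to 13.6 CPM (median 5.81) and 1.25 to 14.3 CPM (median 4.13). Both classes overlapped for all of these features.

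**Figure D2:**
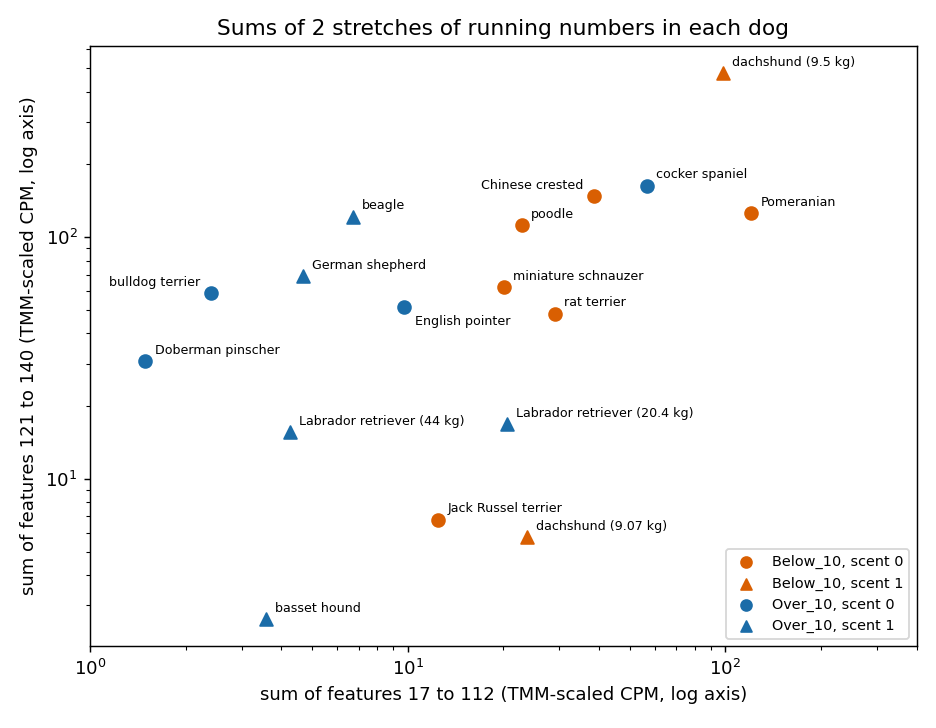
Summed level of the features numbered 17 to 112 (horizontal, TMM-scaled CPM, log axis) against those numbered 121 to 140 (vertical, TMM-scaled CPM, log axis) in each dog, coloured by weight class, with circles for scent 0 and triangles for scent 1. The 7 Over_10 dogs at the left lie at or below 9.77 CPM on the horizontal axis, whereas the low values on the vertical axis (2.64 to 6.79 CPM) belong to a basset hound, a dachshund and a Jack Russel terrier.

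Co-variation over the 17 dogs was closer within the first and second stretch than between them, but the stretches were drawn with these values seen. Features averaging at least 1 CPM were used, 9 of 23 in 17 to 112 and 12 of 19 in 121 to 140. Spearman's rho had a median of 0.72 over the 36 pairs of the first stretch and 0.77 over the 66 pairs of the second. Between them the median was 0.38 over 108 pairs. The last stretch did not stand apart. Its features chr18_166 and chr18_169 had a rho of 0.51, and medians with the first and second stretch were 0.48 and 0.50. Neighbours in running number among the 23 features used, not all of them adjacent numbers, had a median rho of 0.76 (22 pairs). All 253 pairs had a median of 0.57. Most neighbours lie within a stretch, so these medians do not show an effect of adjacency. As sums, the first stretch ran with the named features of chromosome 5 (rho = 0.87), chromosome 20 (0.88) and chromosome 21 (0.84), the last being the chromosome of the class I receptors. Its rho was 0.70 with chromosome 27, 0.63 with chromosome 14 and 0.55 with the second stretch. The second stretch ran with those of chromosome 14 (0.89), 27 (0.83) and 20 (0.76), with a rho of 0.27 with chromosome 21 and 0.26 with chromosome 5. Without the cocker spaniel and the 9.5 kg dachshund, the medians were 0.68 within the first and within the second stretch and 0.20 between them. They were 0.69 for neighbours and 0.44 for all pairs. The sums of the first and second stretch then had a rho of 0.37 with each other. The first had 0.84 with chromosomes 21 and 5, and the second 0.13 and 0.04. The points are 17 dogs whose values share a library, its depth and its scaling, so these coefficients are descriptions.

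In which dogs the chromosome 18 features were kept was set against detection on other chromosomes. Outside chromosome 18, 163 chromosome-named features were counted. Every Below_10 dog had at least 87 of them detected, the 20.4 kg Labrador retriever 104 and the cocker spaniel 93. The other 7 Over_10 dogs had 17 (Doberman pinscher), 23 (basset hound), 38 (German shepherd), 39 (bulldog terrier), 40 (44 kg Labrador retriever) and 43 (beagle and English pointer). In the same order these 7 had 11, 8, 17, 17, 13, 21 and 20 of the 45 chromosome 18 features. The Jack Russel terrier (19) and the 9.07 kg dachshund (20) had no more chromosome 18 features than the beagle, although 90 and 94 were detected elsewhere.

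**Figure D3:**
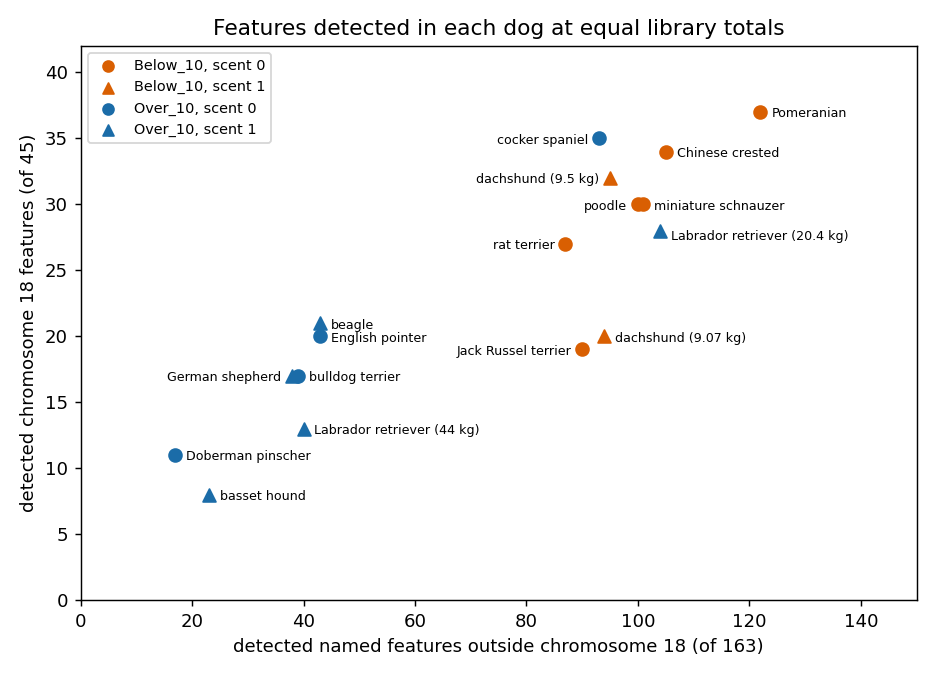
Number of chromosome 18 features (vertical, of 45) and of other chromosome-named features (horizontal, of 163) with at least 5 reads after thinning to equal library totals, 1 point per dog, coloured by weight class, with circles for scent 0 and triangles for scent 1. The 7 Over_10 dogs at the left lie at 43 or fewer on the horizontal axis, and the Jack Russel terrier and the 9.07 kg dachshund lie below the other dogs that have at least 87.

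In the 7 dogs with few features elsewhere, 24 of the 45 chromosome 18 features were detected at least once and 21 never. Feature chr18_121 was kept in all 7, as were chr18_126, chr18_166 and chr18_169. Kept in 6 were chr18_91, chr18_97, chr18_123, chr18_128, chr18_130 and chr18_140. By mean CPM over all 17 dogs, the features kept in 6 or 7 held ranks 1 to 9 and 11. Being kept at a fixed minimum of 5 reads thus largely followed abundance. By stretch, 17 of the 23 features of the first were detected in none of the 7, against 4 of 19 in the second, of which 2 had no read in any dog, and 0 of 3 in the last. The stretches also differed in abundance, with 9 of 23 features averaging at least 1 CPM in the first and 12 of 19 in the second. The reads behind these are given for the Doberman pinscher, basset hound, German shepherd, bulldog terrier, 44 kg Labrador retriever, beagle and English pointer, in that order. Feature chr18_121 had 21, 11, 72, 107, 51, 98 and 129 reads. Feature chr18_166 had 18, 17, 73, 15, 20, 200 and 66 reads, and chr18_169 had 27, 17, 121, 116, 145, 58 and 252. The basset hound had the fewest reads in chr18_121, chr18_169 and chr18_126, whose reads in all dogs are given above. Reads of chr18_123 numbered 9, 1, 42, 61, 23, 83 and 76. For chr18_128 they were 60, 4, 95, 67, 24, 215 and 51, and for chr18_130 30, 2, 158, 68, 11, 167 and 24. Those of chr18_140 were 31, 3, 111, 95, 45, 377 and 33. In these 4 features of the second stretch the basset hound again had the fewest. The kept members of the first stretch had 9, 4, 36, 10, 15, 16 and 46 reads for chr18_91 and 1, 14, 8, 5, 15, 27 and 41 for chr18_97.

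The weight comparison asks whether small and large dogs differ in these features. The summed level of all 45 averaged 201 ± 213 CPM (SD) over the 8 Below_10 dogs and 88.9 ± 82.2 CPM over the 9 Over_10 dogs. It was 132 ± 90.2 CPM without the 9.5 kg dachshund (n = 7) and 65.1 ± 43.8 CPM without the cocker spaniel (n = 8). The lowest, median and highest were 28.7, 127 and 686 CPM in Below_10 and 9.15, 72.8 and 279 CPM in Over_10 dogs, so the classes overlapped. The log2 totals (with 0.5 CPM added) were 7.05 ± 1.44 and 5.94 ± 1.40. The difference, -1.10, was less than the spread between dogs (two-sided exact permutation p = 0.131, adjusted p = 0.254 over 6 tests). Within batches it was -0.54 (exact permutation p = 0.494), and the batches labelled 2, 3, 4 and 6 gave 0.93, -1.12, 0.86 and -2.03, with both signs among them. Batches 1 and 5 held dogs of a single class. The 3 highest totals belonged to the libraries with the lowest TMM factors, the 9.5 kg dachshund (0.518), the cocker spaniel (0.757) and the Pomeranian (0.727). That dachshund also had the lowest RNA integrity number, 5.9, against 7.4 to 9.1 in the other dogs. Scaled to library totals instead, the difference was -0.95 (exact permutation p = 0.130), and without the cocker spaniel and that dachshund it was -1.03 (exact permutation p = 0.116). Without the 3 libraries of lowest TMM factor it was -0.80 (exact permutation p = 0.224). Without the 4 libraries marked as a first replicate it was -1.26 (exact permutation p = 0.0845).

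The number of features detected was 28.6 ± 6.37 (SD, n = 8) in Below_10 and 18.9 ± 8.45 (n = 9) in Over_10 dogs. The difference of -9.74 had a two-sided exact permutation p of 0.0214, which did not pass adjustment over the 6 tests (adjusted p = 0.103). It was -9.15 within batches (exact permutation p = 0.0583), and the same batches gave -1.5, -15, -3 and -14.8, all negative. Batch 2 holds both the cocker spaniel, which had 35, and the Jack Russel terrier, which had 19. Without the cocker spaniel and the 9.5 kg dachshund the difference was -11.3 (exact permutation p = 0.00668). With libraries thinned to equal TMM-scaled depth instead, it was -9.32 (exact permutation p = 0.0336). Without the 4 libraries marked as a first replicate it was -13.8 (exact permutation p = 0.0035), so its size depended on these libraries.

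**Figure D4:**
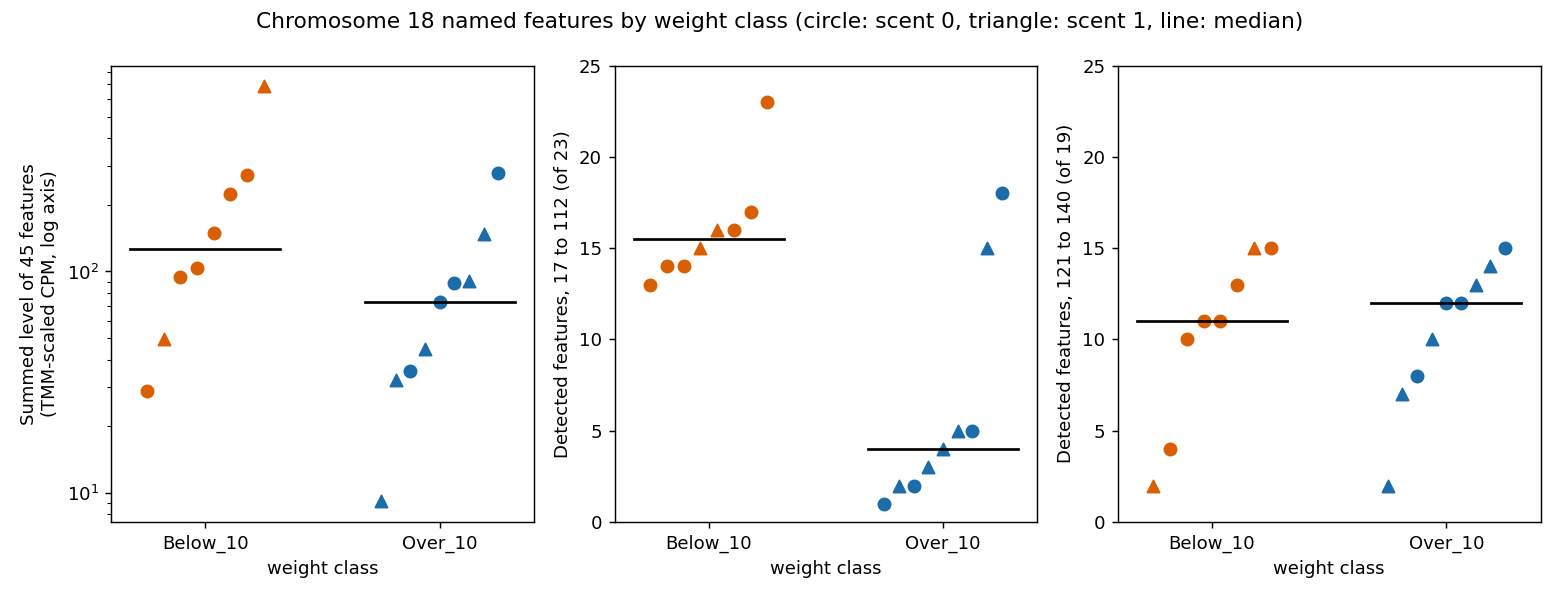
Summed level of the 45 features (TMM-scaled CPM, log axis) and numbers of detected features in the stretches 17 to 112 and 121 to 140, by weight class; each point is a dog, circles scent 0, triangles scent 1, and the line is the median. The classes part in the middle panel except for 2 Over_10 dogs (15 and 18 detected), and overlap in the other panels.

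Chromosome 18 features were compared with those of chromosome 21 within each dog. The log2 total of chromosome 18 minus that of chromosome 21 was 1.19 ± 1.43 (SD, n = 8) in Below_10 and 3.03 ± 1.75 (n = 9) in Over_10 dogs. The ratio of chromosome 18 to the 44 chromosome 21 features was 3.59-fold larger in the large dogs (two-sided exact permutation p = 0.0345), which did not pass adjustment over the 6 tests (adjusted p = 0.103). It was larger by 2.25 log2 units within batches (exact permutation p = 0.0222), and it was above 0 in batches 2, 3, 4 and 6 (2.96, 1.39, 5.63 and 0.72). It missed an unadjusted p of 0.05 when any of 9 single dogs was left out (Pomeranian, Jack Russel terrier, miniature schnauzer, 9.07 kg dachshund, Doberman pinscher, beagle, bulldog terrier, German shepherd or English pointer). The largest of these, without the 9.07 kg dachshund, was an exact permutation p of 0.0692 at 1.57 log2 units. Without the 4 libraries marked as a first replicate the difference was 2.63 log2 units (exact permutation p = 0.00758). Without the cocker spaniel and the 9.5 kg dachshund it was 2.16 log2 units (exact permutation p = 0.0263). Against the 119 named features outside chromosomes 18 and 21, the class difference of the chromosome 18 total was 0.37 log2 units. It did not reach a p of 0.05 (exact permutation p = 0.241, adjusted p = 0.289). Without that pair it was 0.46 (exact permutation p = 0.190).

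Single features were tested over the whole table with edgeR's quasi-likelihood test in a model with batch, weight class and scent code. Of the 45, 21 passed the low-count filter: 7 of 23 in the first stretch, 12 of 19 in the second and 2 of 3 in the last. No chromosome 18 feature was called for weight class at an adjusted p of 0.05 (0 of 21, 2 at an unadjusted p under 0.05), where 8.94% of all 16202 features were called, 3.61% lower and 5.33% higher in Over_10 dogs. The 2 are 9.52% of the 21, against 26.6% of all features at that unadjusted p. In the first stretch 6 of 7 fitted values were below 0 and in the second 4 of 12. The median of the 21 was -0.29, against 0.03 over all features tested. Without the cocker spaniel, 18 of the 20 features then tested were below 0 (median -0.77), against 50.4% of all features. Only chr18_122 (1.78) and chr18_126 (0.29) were then above 0, so most tested features of the second stretch were below 0 as well.

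The features with the smallest p were chr18_45 and chr18_39, both of the first stretch. For chr18_39 the lowest, median and highest levels were 0.523, 3.84 and 6.13 CPM in Below_10 and 0.157, 0.513 and 2.47 CPM in Over_10 dogs, and the classes overlapped. Its fitted log2 change was -2.14 ± 0.78 (SE; edgeR adjusted p = 0.101). That of chr18_45 was -3.32 ± 1.20 (edgeR adjusted p = 0.0998), a size that depends on how reads of 0 enter the fit. Next came chr18_86 (-1.45 ± 0.73, edgeR adjusted p = 0.227), chr18_122 (1.83 ± 1.06, adjusted p = 0.294) and chr18_72 (-1.68 ± 1.16, adjusted p = 0.389). Feature chr18_126 had a fitted change of 1.16 ± 1.42 and chr18_169 one of 0.20 ± 0.85, both smaller than their errors.

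Leaving out 1 library changed these calls. Without the cocker spaniel, edgeR called 5 of the 20 tested features lower in Over_10 dogs and 0 higher, where 12.3% of all features were called, 5.6% lower and 6.71% higher. These were chr18_39 (log2 change -3.30, adjusted p = 0.0104), chr18_45 (adjusted p = 0.0209), chr18_72 (-3.90, adjusted p = 0.0418), chr18_86 (-2.54, adjusted p = 0.0292) and chr18_93 (-2.62, adjusted p = 0.0211), all of the first stretch. Without the 9.5 kg dachshund as well, edgeR called 6 of 21 lower, where 4.42% of all features were called lower and 6.56% higher. The sixth was chr18_112 (edgeR adjusted p = 0.0278). With all 17 dogs, DESeq2 called 5 of 43 features lower and 0 higher (5.57% and 5.94% of all features). They were chr18_39, chr18_45, chr18_77, chr18_79 and chr18_112, again of the first stretch. Features to which DESeq2 gave no adjusted p, chr18_124 and chr18_125 among them, count as not called in the 43 and in these shares. Without the 3 libraries of lowest TMM factor, edgeR called chr18_39, chr18_45 and chr18_93 lower and none of the 17 tested higher, where 10.2% of all features were called, 4.14% lower and 6.06% higher. In the deposited log2 values, limma called only chr18_39 lower (-2.34, adjusted p = 0.0445, 1 of 15 features), where 4.53% of all features were called lower and 6.62% higher. In 7 of the Over_10 dogs, chr18_45 had 0 reads and chr18_72 at most 3. Such features passed edgeR's low-count filter mainly through Below_10 dogs, so a higher call in Over_10 dogs was hardly open to them. The counts of lower against higher calls are limited by this. That the calls fell in the first stretch is no test of the stretches, which were drawn after these values had been seen.

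Among all 43 features with reads, fitted with edgeR without the low-count filter, 0 were called and 11 had an unadjusted p under 0.05, where 3.85% of all features were called, 1.75% lower and 2.1% higher. The 11 are 25.6% of the 43, against 17.9% of all features at that unadjusted p. In the first stretch 22 of 23 fitted values were below 0 (median -1.53) and 10 had such a p. In the second 7 of 17 were below 0 (median 0.31) and 1 had such a p. Over all 27482 features in that fit, 51.3% were below 0 and the median was -0.01. The feature in the second stretch with such a p was chr18_125, at 12 reads in the bulldog terrier and at most 3 in every other dog. This fit was not run without the cocker spaniel, whose omission left most second-stretch features below 0 in the filtered fit. Because the stretches were drawn after these values had been seen, the counts of p by stretch describe the stretches and do not test them.

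The scent comparison asks whether dogs of the 2 scent codes differ. The log2 total was 6.08 ± 1.92 (SD, n = 7) in scent 1 and 6.73 ± 1.13 (n = 10) in scent 0 dogs. The difference of -0.64 was within the spread (two-sided exact permutation p and adjusted p both 0.397). It was -1.05 (exact permutation p = 0.118) without the cocker spaniel and the 9.5 kg dachshund and -1.46 (exact permutation p = 0.0643) without the 4 libraries marked as a first replicate. Single dogs moved it from -1.20 (without the 9.5 kg dachshund, exact permutation p = 0.0738) to -0.18 (without the basset hound, exact permutation p = 0.799). The lowest, median and highest totals were 9.15, 49.5 and 686 CPM in scent 1 and 28.7, 99.4 and 279 CPM in scent 0 dogs. Both the lowest and the highest dog of the study carried scent code 1. Detected features numbered 19.9 ± 8.28 in scent 1 and 26 ± 8.76 in scent 0 dogs (difference -6.14, exact permutation p = 0.169, adjusted p = 0.254). Without the cocker spaniel and the 9.5 kg dachshund the difference was -7.17 (exact permutation p = 0.122), and at equal TMM-scaled depth -4.76 (exact permutation p = 0.304). Compared within batches, scent 1 minus scent 0 was -1.01 log2 units (exact permutation p = 0.250) and -10 features (exact permutation p = 0.0667). Batches 1, 3 and 6, which hold both codes, gave 1.32, 0.20 and -2.65 for the total and -5, -4.5 and -15.2 for the detected number. Scent 1 held 2 Below_10 and 5 Over_10 dogs and scent 0 held 6 and 4, so the factors were not balanced.

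No chromosome 18 feature was called for scent code by edgeR (0 of 21, 0 at an unadjusted p under 0.05), where 0% of all features were called and 1.78% reached such a p. None of 43 passed with DESeq2, where 0.0327% of all features were called, 0.0218% lower and 0.0109% higher, and 2 of the 43 (4.65%) reached such a p, against 2.15% of all. Of the 21 fitted values 15 were below 0, with a median of -0.90, against 53.1% below 0 and a median of -0.02 over all features. Fitted without the low-count filter, 0 of 43 were called, where 0% of all features were, and 5 (11.6%) had an unadjusted p under 0.05, against 1.90% of all. There 35 of 43 fitted values were below 0 (50.5% of all), with 21 of 23 in the first stretch (median -1.53) and 12 of 17 in the second (median -0.49). Whether the weight difference itself varied with scent code was tested as an interaction term. Of 21 features, 0 passed and 0 had an unadjusted p below 0.05, and the smallest edgeR adjusted p was 0.798, where 0% of all features were called. By stretch, the summed level of 121 to 140 had its lowest, median and highest values at 2.64, 16.8 and 476 CPM in scent 1 and at 6.79, 60.3 and 164 CPM in scent 0 dogs. For 17 to 112 these were 3.59, 6.72 and 98.4 CPM and 1.49, 21.5 and 121 CPM. The codes overlapped in both stretches.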

How the data were processed

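Olfactory epithelium RNA of 17 dogs was measured by RNA-seq, 1 library per dog. The authors deposited whole-number read counts per feature, which were used as deposited, and a table of log2 values from which, by its name, a batch effect was removed (15 of the 45 features are in it; used as an alternative only). The submitters' processing notes name, without saying what each did, DESeq2, limma, edgeR, HTSeq, STAR 2.5.3 and Trim Galore 0.3.1. No source used here gives the genome build, annotation or strand of counting. Columns were matched to dogs through the library names in the labels. Replicate numbers follow accession order and only name dogs. The labels state that 4 samples were extracted in 2 batches, without naming them.

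Features were kept by filterByExpr on the scent groups (minimum count 10; 16202 of 32912), scaled by TMM and tested with edgeR 4.0.16 (quasi-likelihood, robust, R 4.3.3; batch, weight class and scent; 9 residual degrees of freedom), with Benjamini-Hochberg adjustment over all features at 0.05. The SE is the fitted change divided by the square root of its F statistic. The procedure was tested on simulated data. Totals and detected numbers were compared over all 24310 (weight) or 19448 (scent) assignments of dogs to groups, and over the 360 or 60 that keep batch numbers. Alternatives used DESeq2 1.42.0, limma 3.58.1, other scalings, added constants and left-out dogs. Library totals of 10536639 to 31637925 counts put a count of 0 at no more than 0.128 to 0.390 CPM (3 reads). The features named were the 10 most abundant, those detected in every dog, the 5 with the smallest edgeR p for weight class, those kept in most dogs with few named features, and a few chosen after their values were seen (chr18_74, chr18_77, chr18_79, chr18_93, chr18_101, chr18_112, chr18_124, chr18_125). The 45 features, the comparisons and the lists were chosen with earlier results of these data known. The planned cell type markers need gene names and were not used. Outside R, pandas 2.3.3, scipy 1.17.1 and numpy 2.4.6 ran under Python 3.11.15.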

Additional observations from a re-analysis of the deposited data

Results flagged for a closer look

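Gaps within groups of 7 to 10 dogs were compared with Dixon's 95% critical values, which chance alone passes in about 1 group in 20. Of 68 such comparisons 4 passed. Among scent 0 dogs the Jack Russel terrier was separated from the others at the low end for chr18_126 and chr18_128, at a log2 level of -1.0 for both, which is the value of 0 reads with 0.5 CPM added. Among the same dogs the Pomeranian was separated at the high end for chr18_72, at 4.01. Among scent 1 dogs the 9.5 kg dachshund was separated at the high end for chr18_91, at 4.76.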

How the results depend on the processing

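A setting counts as changing a result where the unadjusted p crosses 0.05 or a number of called features moves by more than 1.5 times. The totals by weight class and scent code, the scent difference in the detected number and the difference from the remaining named features stayed short of the threshold with the same sign under all alternatives run. The lower detected number in Over_10 dogs missed it without thinning (-9.33, exact permutation p = 0.0534) and within batches (-9.15, exact permutation p = 0.0583), and passed it at equal TMM-scaled depth (-9.32, chosen after seeing the data). With 1 dog left out it ran from -11.8 to -8.38 and stayed past it. The difference between chromosomes 18 and 21 missed it with 2 CPM added (1.56 log2 units, exact permutation p = 0.0518) and without any of 9 single dogs, its range being 1.57 to 2.27. For weight class, the 0 called features became 5 with DESeq2, 1 with limma on the deposited log2 values (chr18_39), 3 without the libraries with the lowest TMM factors, 6 without the cocker spaniel and the 9.5 kg dachshund (chosen after seeing the data), and 0 to 5 with 1 dog left out, 5 only without the cocker spaniel. All were lower in Over_10 dogs, and the cause was not tested. Over all features, edgeR called 1448 for weight class, between 1 (without the bulldog terrier) and 1985 (without the cocker spaniel) with 1 dog left out, and 168 without the batch term. No paired analysis was possible because the labels give no replicate numbers that the weight classes share. Of features 17 to 112, 16 of the 23 did not pass the low-count filter. A count of 0 allows levels of up to 0.128 to 0.390 CPM, the worth of 3 reads in each library, so it does not show absence.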
